A study of Mus musculus with 16 samples.

Results

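The phosphodiesterase gene Pde10a and 8 genes that mark striatal neurons (Drd1, Drd2, Adora2a, Ppp1r1b, Rgs9, Penk, Tac1 and Pde1b) were followed through H3K4me3 ChIP-seq of mouse hippocampus. Every H3K4me3 region inside one of these genes, or within 2 kb of either of its ends, was taken (mm10 coordinates). This gave 25 of the 35996 regions, 9 at Pde10a and 16 at the other 8 genes. Pde10a was chosen by the H3K4me3 counts of the region at its outer end, which were higher after novelty than under standard conditions, so its novelty values are given as a description, with no test. The markers were chosen for their known role in the striatum. The question was whether that region moved with the striatal markers from library to library.

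The 12 H3K4me3 libraries formed 6 groups of 2. Wild-type (WT) and constitutive Kdm5c knockout (KO) males, on a mixed F1 background of C57 and 129, were taken either under standard conditions or after 1 h in an unfamiliar, enriched box. Kdm5c encodes a demethylase that removes methyl groups from H3K4. A second mutant line, labelled ifKO, and its controls, here ifWT, were males on a pure C57BL/6J background in the basal state. The sources used here do not say how the ifKO mutation was made or in which cells. All mice were 2 to 4 months old, controls were littermates, and each library pooled the hippocampi of 2 mice, so p-values measure the spread between such pools. The title of 1 ifWT library names another mark, while its antibody label gives H3K4me3, which was followed here.

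PDE10A hydrolyses the second messengers cAMP and cGMP and is best known from the medium spiny neurons of the striatum, where it tempers the signals of dopamine and adenosine receptors. H3K4me3 is the histone mark of active and poised gene starts. Drd1, Drd2 and Adora2a encode receptors, Ppp1r1b and Rgs9 encode proteins that relay or limit their signal, Penk and Tac1 encode neuropeptide precursors of separate medium spiny neuron classes, and Pde1b encodes a calcium-dependent phosphodiesterase. In a bulk sample, fewer cells of a type and less mark per cell cannot be told apart.

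Region totals ran from 18181192 to 30435735 reads per library, and levels are given as CPM, reads scaled to the library total after TMM adjustment. All 25 regions passed the filter on low counts, which removed 41 regions of the whole set. All 22 genes of a list of dentate gyrus and pyramidal neuron markers had a region, with a median of 27.3 CPM per kb, as had all 10 cortical markers, with 26.5 CPM per kb, so these levels do not separate hippocampus from cortex. The start of Kdm5c itself stayed marked in the mutants, at 59.9 to 60.9 CPM in KO against 61.6 to 72.2 CPM in WT, and 53.5 to 59.6 CPM in ifKO against 58.1 to 61.5 CPM in ifWT. A mark at the start does not check the deletion. None of the regions with H3K4me1 and Kdm5C signal overlapped a member region or came within 2 kb of a member gene, so those marks are not described.

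Pde10a carries its H3K4me3 in 2 places. The annotated gene runs from 8525187 to 8986648 on the plus strand of chromosome 17. The outer region (chr17:8524069-8527904) covers the outermost annotated start, and a pair of adjoining inner regions (chr17:8800650-8801593 and chr17:8801658-8803556) lies inside the gene at another start. The inner start and a further start that carries no region are shown first, because only one of them lies in a region. The starts of Drd1, Drd2 and Tac1 follow for comparison. All are from the RefSeq promoter table (GRCm38.p6), 250 bases before to 50 after a start, 5′ to 3′ along the gene's strand, with each CpG in capitals. The table matched 6 of the 9 genes with 10 entries.
Pde10a inner start (chr17:8801495-8801794, plus strand): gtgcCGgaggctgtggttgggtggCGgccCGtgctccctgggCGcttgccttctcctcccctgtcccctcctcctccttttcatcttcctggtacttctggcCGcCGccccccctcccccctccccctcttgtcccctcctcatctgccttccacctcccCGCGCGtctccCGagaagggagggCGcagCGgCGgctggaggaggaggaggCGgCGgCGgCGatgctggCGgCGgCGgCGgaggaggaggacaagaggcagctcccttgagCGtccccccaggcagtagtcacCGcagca
Pde10a further start (chr17:8849735-8850034, plus strand): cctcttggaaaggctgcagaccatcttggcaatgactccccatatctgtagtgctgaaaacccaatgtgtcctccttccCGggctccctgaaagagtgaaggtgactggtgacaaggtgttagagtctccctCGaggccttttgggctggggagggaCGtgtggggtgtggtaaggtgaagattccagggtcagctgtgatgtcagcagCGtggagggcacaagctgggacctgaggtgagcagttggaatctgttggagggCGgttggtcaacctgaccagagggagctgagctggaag
Drd1 (chr13:54055609-54055908, minus strand): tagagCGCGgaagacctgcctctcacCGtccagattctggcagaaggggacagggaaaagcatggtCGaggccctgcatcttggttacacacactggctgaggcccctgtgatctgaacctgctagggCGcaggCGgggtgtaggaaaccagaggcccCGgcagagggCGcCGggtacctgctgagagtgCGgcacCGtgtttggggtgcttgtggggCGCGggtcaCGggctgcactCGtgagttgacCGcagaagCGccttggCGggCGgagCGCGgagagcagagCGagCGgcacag
Drd2 (chr9:49340153-49340452, plus strand): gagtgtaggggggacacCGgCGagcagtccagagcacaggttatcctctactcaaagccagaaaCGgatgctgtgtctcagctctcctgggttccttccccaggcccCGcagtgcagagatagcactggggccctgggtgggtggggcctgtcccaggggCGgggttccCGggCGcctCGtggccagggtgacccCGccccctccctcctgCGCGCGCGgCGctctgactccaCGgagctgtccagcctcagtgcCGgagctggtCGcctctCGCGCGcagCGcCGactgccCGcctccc
Tac1 (chr6:7554811-7555110, plus strand): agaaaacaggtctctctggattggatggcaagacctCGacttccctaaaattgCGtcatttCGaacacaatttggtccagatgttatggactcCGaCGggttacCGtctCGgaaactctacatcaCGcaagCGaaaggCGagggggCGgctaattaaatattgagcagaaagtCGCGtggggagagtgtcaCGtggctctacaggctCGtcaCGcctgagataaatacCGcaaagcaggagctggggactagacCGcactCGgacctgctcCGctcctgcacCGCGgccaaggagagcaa

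The marked Pde10a inner start held 23 CpGs, as did the printed starts of Drd1 and Drd2, and 21.5% of all promoters in the table held as many. The unmarked Pde10a start held 5, below the median of 7 over all promoters. Marked starts with few CpGs occurred too: a second Drd1 start inside the same region held 6, and a Pde1b start inside the gene held 2. Tac1 held 22 CpGs and 2 copies of the cAMP response half-site TGACG, searched on both strands and found in 20.8% of the 32851 promoters. Neither Pde10a start held that half-site, the full cAMP response element (in 1.79% of promoters, and counted with the half-site too) or the AP-1 motif TGAGTCA (in 5.20%). A match describes the letters only.

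At the outer end of Pde10a, both wild-type libraries under standard conditions had 71.6 and 76.4 CPM, and both after novelty had 96.6 and 95.1 CPM. The KO libraries had 93.5 and 82.1 CPM under standard conditions and 108.4 and 112.6 CPM after novelty. The groups did not overlap in either genotype. The ifWT libraries had 76.9 and 74.6 CPM and the ifKO libraries 90.1 and 85.0 CPM, again without overlap.

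**Figure D1:**
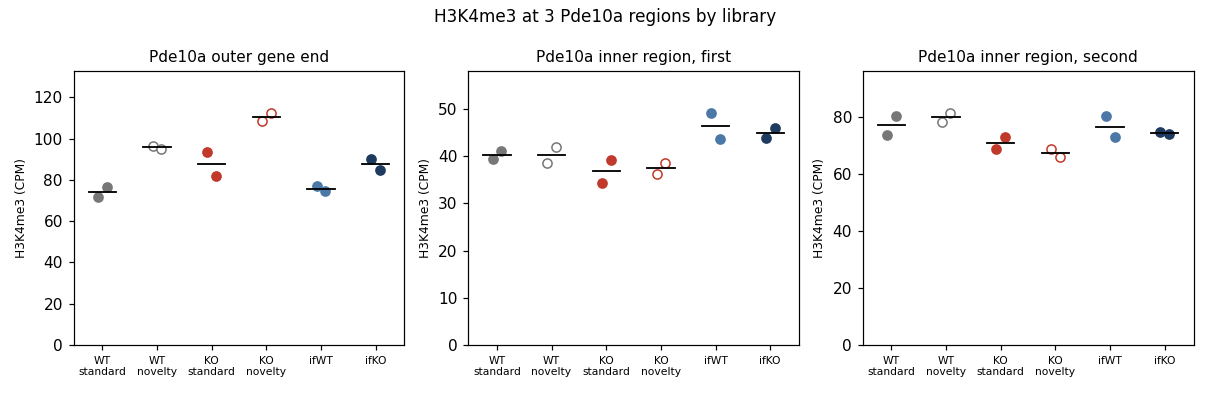
H3K4me3 (CPM) at the outer end of Pde10a and at its 2 inner regions in each of the 12 libraries, with 1 point per library and a bar at the mean of each group. The outer end runs from 71.6 CPM in a WT standard library to 112.6 CPM in a KO novelty library (1.57-fold). The first inner region runs from 34.4 CPM in a KO standard library to 49.2 CPM in an ifWT library (1.43-fold). The second inner region stays between 65.7 and 81.4 CPM (1.24-fold).

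Ordered by their means, the groups were WT standard (74.0 ± 3.40 CPM, SD, n = 2), ifWT (75.8 ± 1.61), ifKO (87.6 ± 3.59), KO standard (87.8 ± 8.07), WT novelty (95.9 ± 1.05) and KO novelty (110.5 ± 2.998). WT standard and ifWT overlapped, as did ifKO and KO standard, and every other pair of neighbours was separated. The difference between the 2 control cohorts, ifWT minus WT standard, was 0.03 on the log2 scale (edgeR adjusted p = 0.79), though strain and cohort differ between them. The log2 change with novelty was 0.37 ± 0.06 (SE, 95% interval 0.25 to 0.50) in WT and 0.33 ± 0.06 (0.21 to 0.45) in KO. These values selected the gene.

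In WT the levels of both inner regions overlapped between standard conditions and novelty. The first inner region had 39.4 and 41.1 CPM in WT under standard conditions and 38.5 and 41.9 CPM after novelty. The second had 73.5 and 80.3 CPM, then 78.2 and 81.4 CPM. The 95% intervals of the WT novelty change (log2) were -0.15 to 0.16 for the first inner region and -0.07 to 0.18 for the second. In KO the groups of the first inner region overlapped too. The second was lower after novelty without overlap, at 68.5 and 65.7 CPM against 68.7 and 72.8 CPM. The 95% intervals in KO were -0.13 to 0.17 and -0.20 to 0.05.

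No striatal marker was called with novelty. Over their 16 regions edgeR called 0 in WT, 0 in KO, 0 for the average of both and 0 for the interaction, and 0 had an unadjusted p under 0.05 in any of these. Without the outer end of Pde10a, 0 of the other 24 members were called in any of the 4, and the unadjusted p was under 0.05 at 0 of them in WT and for the average and at 1 in KO and for the interaction, the second Pde10a region both times. Of all regions 0.00556% were called in WT, 0.0% in KO, 0.0473% for the average (0.0445% higher and 0.00278% lower) and 0.0% for the interaction. Of the 35955 tested regions, 1679 had an unadjusted p under 0.05 in WT, 1416 in KO, 2134 for the average and 1055 for the interaction. With the outer end, which was chosen by these counts and from whose calls nothing is read, the members called were 1, 0, 1 and 0. The median log2 change in WT over the 16 marker regions was 0.03, beside -0.00253 over all regions, and in KO it was -0.01, beside -0.00432.

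**Figure D2:**
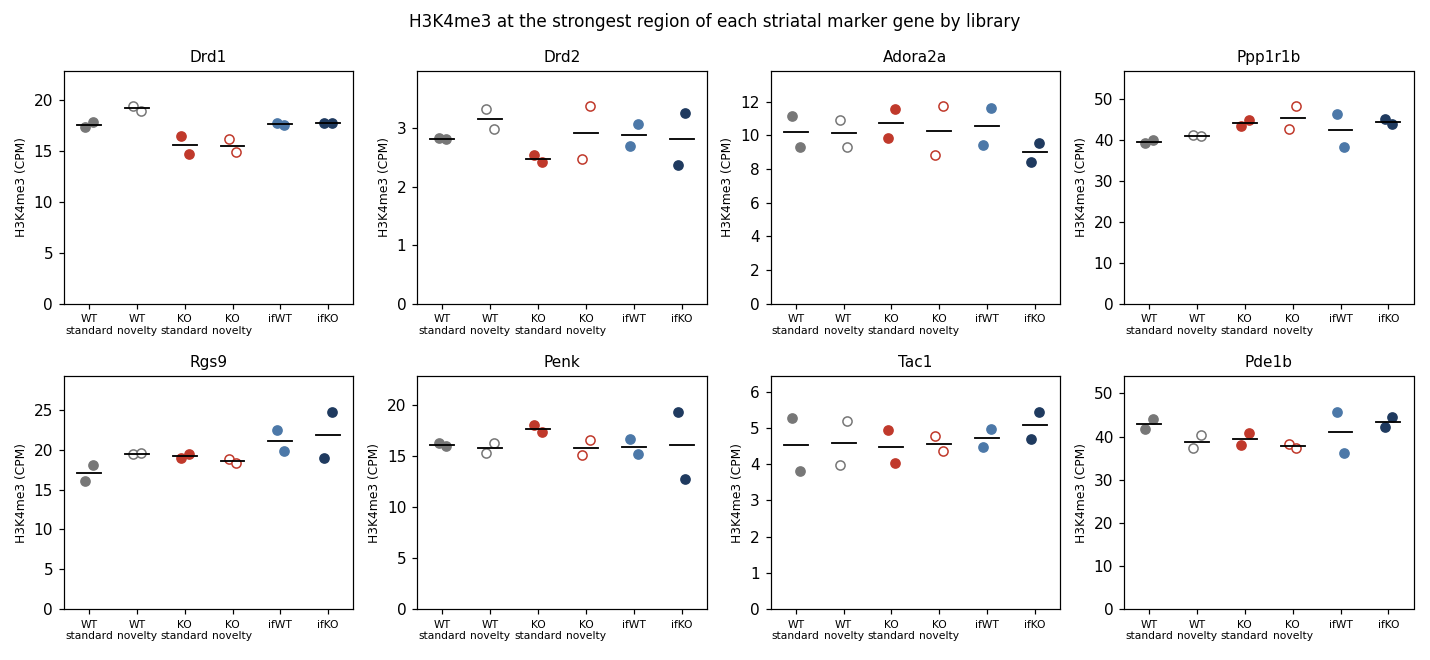
H3K4me3 (CPM) at the strongest region of each striatal marker gene, 1 point per library and a bar at the group mean, each panel on its own axis from 0. Drd1 is lower in the 4 KO libraries (14.7 to 16.5 CPM) than in the 4 WT libraries (17.3 to 19.4 CPM), and no marker separates novelty from standard libraries in both genotypes in the same direction.

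Each marker is represented by its region with most counts. The dopamine receptor gene Drd1 (chr13:54054614-54055853, at its start) had 17.3 and 17.9 CPM in WT standard, 19.4 and 19.0 in WT novelty, 16.5 and 14.7 in KO standard, and 16.2 and 14.9 in KO novelty libraries. The WT groups did not overlap and the KO groups did. Averaged over both genotypes the log2 change with novelty was 0.06, with a 95% interval of -0.08 to 0.21. The dopamine receptor gene Drd2 (chr9:49340077-49341087) was weak, at 2.83 and 2.82 CPM in WT standard, 3.33 and 2.99 in WT novelty, 2.55 and 2.42 in KO standard, and 2.48 and 3.38 in KO novelty libraries. Its averaged change of 0.19 had the widest interval of the 8 markers (-0.14 to 0.52), at 46 to 86 reads per library.

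The adenosine receptor gene Adora2a (chr10:75316924-75318118) had 11.1 and 9.29 CPM in WT standard and 10.9 and 9.32 CPM in WT novelty libraries. Its averaged novelty change was -0.05 (-0.26 to 0.17). The gene of the dopamine-regulated phosphatase inhibitor DARPP-32, Ppp1r1b (chr11:98348090-98349720, which also holds an end of 1700003D09Rik), had 39.2 and 40.1, then 41.3 and 40.9 CPM. The WT groups of Ppp1r1b did not overlap, with an averaged change of 0.05 (-0.06 to 0.16). The gene of the G protein regulator Rgs9 (chr11:109297276-109298475, shared with an end of Gm39441) had 16.1 and 18.1, then 19.5 and 19.6 CPM in WT, and 19.0 and 19.5, then 18.8 and 18.3 CPM in KO. Its direction therefore differed between the genotypes, and the averaged change was 0.07 (-0.09 to 0.23).

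The enkephalin precursor gene Penk (chr4:4137810-4139295) had 16.3 and 16.0 CPM in WT standard and 15.2 and 16.3 CPM in WT novelty libraries, overlapping groups, and an averaged change of -0.10 (-0.28 to 0.08). The substance P precursor gene Tac1 (chr6:7554795-7556460) had 5.26 and 3.80, then 3.97 and 5.18 CPM, with a change of 0.03 (-0.25 to 0.31). The phosphodiesterase gene Pde1b (chr15:103502521-103504790, shared with an end of Nckap1l) had 41.7 and 44.1, then 37.3 and 40.3 CPM, with a change of -0.10 (-0.22 to 0.01). The WT groups of Pde1b did not overlap and its KO groups did. The interval of the averaged novelty change included 0 for each of the 8 markers, with upper limits of 0.01 to 0.52.

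**Figure D3:**
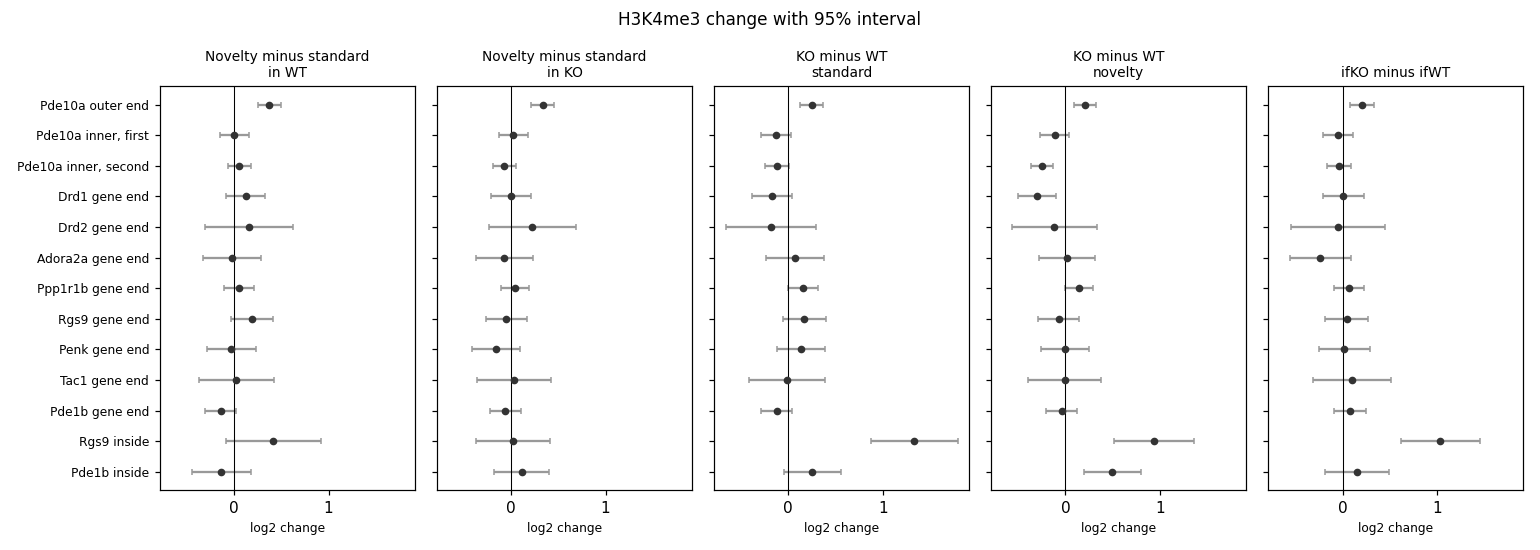
Log2 change of H3K4me3 (edgeR) with its 95% interval at 13 member regions in 5 comparisons, with a vertical line at 0. In the novelty panels the outer end of Pde10a lies at 0.37 and 0.33, the values it was chosen by, and every marker interval crosses 0. In the mutant panels the region inside Rgs9 lies farthest to the right, at 1.33, 0.93 and 1.04.

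Over the 12 libraries the outer end of Pde10a covered a 1.57-fold range, and the start regions of single markers from 1.26-fold (Ppp1r1b) to 1.54-fold (Rgs9), with Penk at 1.52-fold. Their summed level, in which the spread of single regions averages out, ran from 146.9 CPM to 165.8 CPM, both in ifWT libraries, a 1.13-fold range. Strong regions weigh most in such a sum of CPM, here Ppp1r1b and Pde1b with medians of 43.1 and 40.5 CPM. The sum says little about weak markers such as Drd2 and Tac1, with medians of 2.82 and 4.72 CPM. In the WT and KO cohort the summed levels were 149.9 and 152.0 CPM in WT standard, 150.9 and 153.6 in WT novelty, 152.3 and 155.3 in KO standard, and 147.3 and 154.8 in KO novelty libraries. The groups of this sum overlapped between standard and novelty in both genotypes.

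Over the 12 libraries, Pearson's r of log2 CPM between the outer end of Pde10a and a marker ran from -0.50 (Pde1b, Spearman's rho -0.41) to 0.48 (Ppp1r1b, rho 0.45). The two-sided permutation p-values of these 2 were 0.101 and 0.113, both 0.451 after Benjamini-Hochberg adjustment over the 8 markers (rho 0.192 and 0.140, adjusted 0.768). None of the 8 passed an adjusted p of 0.05. Drd1 (r = -0.26, rho = -0.08), Drd2 (0.12, 0.17), Adora2a (-0.14, -0.11), Rgs9 (-0.03, -0.07), Penk (0.04, 0.03) and Tac1 (-0.06, -0.19) lay between them, with p-values of 0.408 to 0.923 for r and 0.559 to 0.921 for rho. Without the 2 libraries farthest from the median of Pde10a, both KO novelty, r was -0.32 for Pde1b, 0.30 for Ppp1r1b and 0.28 for Drd1. Without ifWT replicate 2 the correlation with Pde1b was -0.78 (adjusted permutation p = 0.0426), the 1 leave-out of 12 in which a marker passed.

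Within the 8 libraries of the WT and KO cohort, which share a strain, Pde1b had r = -0.84 (rho -0.81; exact permutation p = 0.0109, adjusted 0.0873; for rho 0.0218, adjusted 0.174) and Ppp1r1b r = 0.65 (rho 0.62; exact permutation p = 0.0794, adjusted 0.318). Pde1b was lower where Pde10a was higher. For Rgs9 r was 0.53 (rho 0.29, adjusted exact permutation p = 0.460), and it turned to -0.78 without both WT standard libraries, the 2 farthest from the median, so it rests on them. The other 5 had r between -0.21 and 0.28.

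Inside the groups, where genotype and novelty are held fixed, the library with more H3K4me3 at Pde10a was also the higher one for the marker in 5 of 6 groups for Ppp1r1b, 4 for Drd1 and Penk, 3 for Drd2, 2 for Adora2a, Rgs9 and Pde1b, and 1 for Tac1. The correlation of the deviations from the group means ran from -0.42 (Adora2a) to 0.60 (Drd1). For Pde1b it was -0.07 and for Ppp1r1b 0.24. Exact permutation within groups gave adjusted p-values of 0.833 to 0.906, where the smallest p the design allows is 0.03125. No marker passed.

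**Figure D4:**
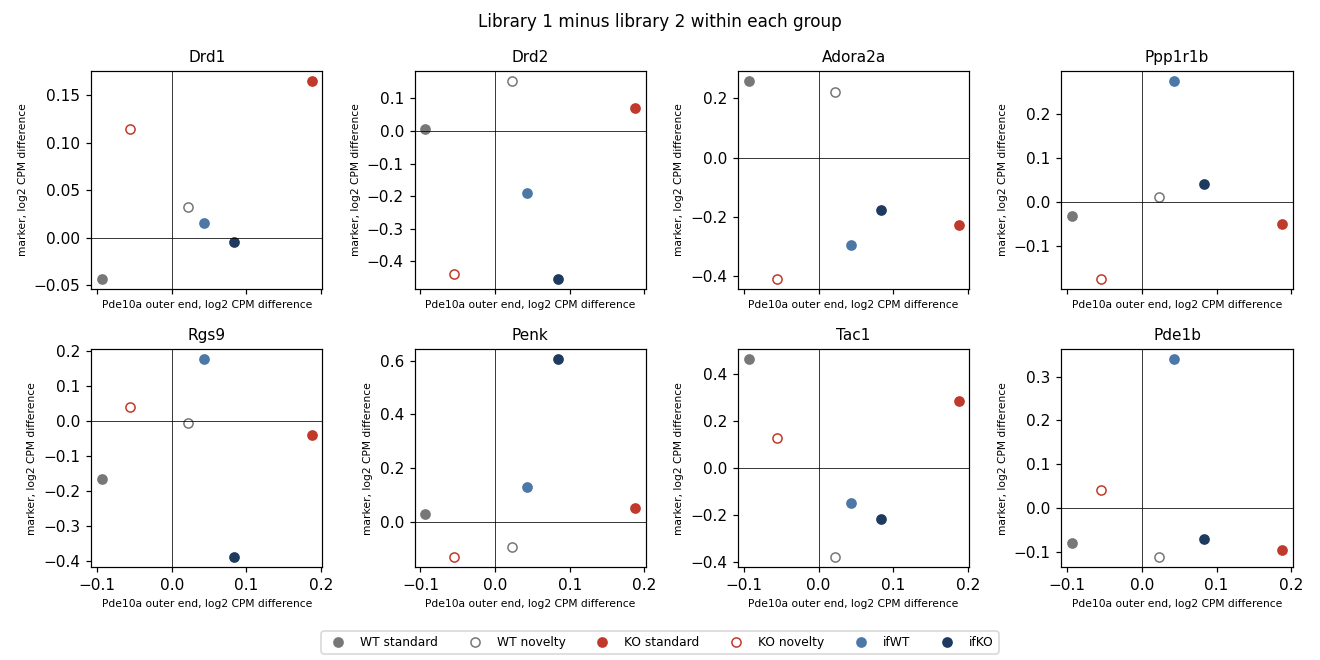
Difference of library 1 minus library 2 (log2 CPM) within each of the 6 groups, the outer end of Pde10a on the horizontal axis and each striatal marker on the vertical axis, 1 point per group. In points at the upper right and lower left of the lines at 0 both differences have the same sign, which holds for 5 of 6 groups for Ppp1r1b and 1 of 6 for Tac1.

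In the Kdm5c mutants the outer end of Pde10a was higher and its inner regions were not. The log2 difference at the outer end was 0.23 ± 0.04 (SE) for KO minus WT averaged over both conditions (edgeR adjusted p = 9.3e-05) and 0.21 ± 0.06 for ifKO minus ifWT (adjusted p = 0.038). Under standard conditions it was 0.25 ± 0.06 and after novelty 0.20 ± 0.06, given without p because each shares a group with a novelty change that chose the gene. In the average, standard and novelty libraries of a genotype weigh equally, so it is a separate contrast from the novelty changes, though it uses the same libraries and their spread. The ifKO call rests on every library of its comparison but ifKO replicate 2: the adjusted p was 0.344 without ifKO replicate 1, 0.0960 and 0.151 without ifWT replicate 1 or 2. It was also 0.0625 by DESeq2, 0.0609 by limma-voom, and 0.0508 to 0.0521 without WT standard replicate 1 or either KO novelty library, which enter that comparison only through the shared spread.

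The second inner region fell in KO. It had 78.2 and 81.4 CPM in WT novelty and 68.5 and 65.7 CPM in KO novelty libraries, without overlap. The difference there was -0.25 ± 0.06 (edgeR adjusted p = 0.0034, 0.0741 without WT novelty replicate 2 and 0.0616 without KO novelty replicate 2), and averaged over both conditions it was -0.18 ± 0.04 (adjusted p = 0.0012). Under standard conditions it had 73.5 and 80.3 CPM in WT against 68.7 and 72.8 CPM in KO (-0.12, 95% interval -0.24 to 0.00348, adjusted p = 0.19). In ifKO its 74.7 and 73.7 CPM lay inside the 80.1 and 72.7 CPM of ifWT (-0.04, adjusted p = 0.79). The first inner region had an averaged KO difference of -0.12 (adjusted p = 0.085).

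The outer region divided by the sum of both inner regions, a ratio chosen after its values were seen and given with no test, was 0.634 and 0.629 in WT standard and 0.908 and 0.734 in KO standard libraries. It was 0.828 and 0.772 in WT novelty and 1.04 and 1.08 in KO novelty libraries. The ifWT libraries had 0.595 and 0.641, and those of ifKO 0.761 and 0.711. The mutant libraries lay above their controls in all 3 sets, by 0.37, 0.40 and 0.25 on the log2 scale, and the novelty libraries above the standard ones by 0.34 in WT and 0.37 in KO. Each set of adjoining comparisons shares libraries.

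The smaller Pde10a regions were weak. A region inside the gene at chr17:8592718-8593432 had 4.31 and 3.35 CPM in WT standard and 2.18 and 1.98 CPM in KO standard libraries. It was lower in KO under standard conditions by a log2 difference of -0.88 ± 0.22 (edgeR adjusted p = 0.0069), a call that ended when WT standard replicate 1 (0.130) or KO standard replicate 2 (0.0627) was left out. After novelty its groups overlapped (-0.07). Of the remaining 5, at 0.110 to 10.0 CPM, the third Pde10a region, with 4 to 24 reads per library, had an edgeR adjusted p of 0.0485 for the KO average (0.93 ± 0.36). That call ended with DESeq2 (0.142), with offsets fitted to region strength (0.156) and in 8 of 12 leave-outs (0.0521 to 0.261): WT standard replicate 2 (log2 difference 0.59), KO standard replicate 1, and both libraries of WT novelty, KO novelty and ifWT. Without WT standard replicate 1 the difference was 1.58.

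Of the marker regions, the 1 inside Rgs9 had the largest difference in each of the 3 mutant comparisons. The inside region (chr11:109258427-109259504) had 1.44 and 1.88 CPM in WT standard and 4.72 and 3.67 CPM in KO standard libraries. After novelty it had 2.28 and 2.16 CPM in WT and 4.35 and 4.11 CPM in KO. In the second line it had 2.89 and 3.35 CPM in ifWT and 6.38 and 6.46 CPM in ifKO. Every mutant library lay above both of its controls in all 3 sets. The log2 differences were 1.33 ± 0.23 (edgeR adjusted p = 6.8e-05), 0.93 ± 0.21 (0.0018) and 1.04 ± 0.20 (0.00093).

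The control cohorts differed at this region as well, with ifWT above WT standard by 0.91 (edgeR adjusted p = 0.0082), a call that ended without WT standard replicate 1 (0.134) or ifWT replicate 2 (0.0798). The region at the start of Rgs9 was not called in any mutant comparison, and in ifKO it had 18.9 and 24.8 CPM, around the 22.5 and 19.9 CPM of ifWT.

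Drd1 was lower in KO than in WT, by -0.24 ± 0.07 averaged over both conditions (edgeR adjusted p = 0.011). After novelty alone the difference was -0.30 ± 0.10 (adjusted p = 0.036), a call that ended with library totals (0.0874) and without any of its 4 libraries (0.0785 to 0.214). The averaged call ended without KO standard replicate 2 (0.0616) or KO novelty replicate 2 (0.0522). In the second line Drd1 had 17.8 and 17.6 CPM in ifWT and 17.7 and 17.8 CPM in ifKO (0.01, 95% interval -0.21 to 0.22). That interval holds the KO difference under standard conditions (-0.18), so the lines were not shown to differ.

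Pde1b had a region inside the gene (chr15:103513672-103515013) that was higher in KO after novelty, at 11.0 and 12.0 CPM against 9.20 and 7.13 CPM in WT. The log2 difference was 0.50 ± 0.15 (edgeR adjusted p = 0.017), a call that ended with offsets fitted to region strength (0.0831) and without WT novelty replicate 2 (0.320) or KO novelty replicate 1 (0.0509) or 2 (0.119). Averaged over both conditions it was 0.38 ± 0.10 (adjusted p = 0.0061, with offsets 0.0699, without KO standard replicate 1 0.0596 and without WT novelty replicate 2 0.0698). The start of Pde1b was not called in any mutant comparison.

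The Ppp1r1b locus had opposite averages at its ends. The region at its start was higher in KO by 0.15 ± 0.05 (edgeR adjusted p = 0.030), a call lost with RLE factors (0.0585), with DESeq2 (0.118) and without 6 of the 12 libraries (0.0579 to 0.182): both WT standard, both WT novelty, KO standard replicate 2 and KO novelty replicate 2. The region past its other end (chr11:98358370-98359508), which is shared with ends of Stard3 and 1700003D09Rik, was lower by -0.15 ± 0.05 (adjusted p = 0.011, 0.0669 with library totals, 0.050008 without KO novelty replicate 2). It was the 1 member with every mutant library below both of its controls in all 3 sets, at 37.6 and 38.9, 39.3 and 37.7, and 39.3 and 39.1 CPM against 41.9 and 42.4, 43.3 and 43.3, and 43.0 and 41.4 CPM. The last Adora2a region, with 11 to 47 reads per library, had an edgeR adjusted p of 0.0495 for the KO average (0.71 ± 0.28). That call ended with RLE factors (0.0528), DESeq2 (0.149), limma-voom (0.0659), offsets fitted to region strength (0.194) and in 6 of 12 leave-outs (0.0723 to 0.297): both WT standard, both WT novelty, KO standard replicate 2 (log2 difference 0.46) and KO novelty replicate 2. The calls at Drd2, Penk and Tac1 were 0 in every mutant comparison.

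The counts of members called, in which the KO and ifKO comparisons include the outer end of Pde10a, are set beside the share over all regions. Of the 25 members, 3 were called for KO minus WT under standard conditions (2 higher, 1 lower), where 13.4% of all regions were called (9.74% higher, 3.67% lower). After novelty 5 were called (3 higher, 2 lower) of a background of 17.0% (11.1% and 5.94%). For the average 10 were called (6 higher, 4 lower) of a background of 32.1% (18.1% and 13.9%). For ifKO minus ifWT, 2 were called, both higher, of 5.38% (4.41% and 0.976%), and for ifWT minus WT standard 1, higher, of 14.5% (7.28% and 7.2%). The members higher in all mutant libraries of the 3 sets were the outer end of Pde10a and the region inside Rgs9, 2 of 25, and 1 was lower, beside 10.7% and 8.98% of all regions.

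Per length, the markers had lower H3K4me3 levels than hippocampal marker genes. Their strongest regions had a median of 12.4 CPM per kb (2.79 for Tac1 to 26.3 for Ppp1r1b), beside 27.3 for the hippocampal markers and 6.59 over all regions. The outer end of Pde10a had 23.1 CPM per kb, at percentile 48.3 of the 19837 regions at gene ends, Ppp1r1b was at percentile 52.5 and Drd2 and Tac1 at 13.1 and 12.9. The inner regions of Pde10a had 43.4 and 39.1 CPM per kb. The other 5 markers lay between percentiles 29.3 and 42.0.

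A wider list of 40 striatal genes, 38 with a region, also showed no call with novelty (0 in WT, KO, average and interaction). An unadjusted p under 0.05 was found at 2, 4, 7 and 1 of the 38, beside 1679, 1416, 2134 and 1055 of all 35955 regions. In KO and for the average the share was higher on the list than over all regions. The same counts over all regions apply to the lists that follow. The summed level of the striatal list stayed within a 1.07-fold range over the 12 libraries, and its median log2 novelty change was 0.02 in WT and 0.000747 in KO. In the mutants 4 were higher and 2 lower under standard conditions, 3 and 5 after novelty, 5 and 6 for the average, and 1 and 1 in ifKO, beside 13.4%, 17.0%, 32.1% and 5.38% of all regions called in those comparisons. The largest difference on the list was at Gng7, a G protein gamma subunit gene, whose strongest region had 13.2 and 13.9 CPM in WT standard and 46.5 and 40.6 CPM in KO standard libraries, and 12.0 and 10.3 CPM in ifWT against 43.9 and 38.0 CPM in ifKO. Its log2 differences were 1.69 ± 0.10, 1.55 ± 0.10 after novelty and 1.88 ± 0.11 in ifKO (edgeR adjusted p = 2.9e-14, 2.5e-13 and 2.5e-14). The dynorphin precursor gene Pdyn was lower in KO (-0.50 and -0.58) and the muscarinic receptor gene Chrm4 higher (0.25 and 0.28).

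The other cyclic nucleotide phosphodiesterases, 19 of 22 with a region, had 0 calls with novelty in WT, KO, average and interaction (1, 2, 2 and 2 at an unadjusted p under 0.05). Pde4b, which encodes a cAMP-specific enzyme, was higher in every mutant comparison, by 0.36 ± 0.06, 0.40 ± 0.06 and, in ifKO, 0.22 ± 0.06 (edgeR adjusted p = 4.5e-05, 6.8e-06 and 0.034). It had 56.9 and 59.5 CPM in WT standard and 77.4 and 72.4 CPM in KO standard libraries. For the list, 1 was higher and 0 lower under standard conditions, 1 and 3 after novelty, 3 and 5 for the average, and 1 and 0 in ifKO. Of all regions, 9.74% were called higher and 3.67% lower under standard conditions, and 11.1% and 5.94% after novelty. For the average these shares were 18.1% and 13.9%, and in ifKO 4.41% and 0.976%.

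Genes of cAMP signalling, all 39 with a region, had 0 calls with novelty in the same 4 comparisons (2, 2, 3 and 3 at an unadjusted p under 0.05). In the mutants 3 were higher and 3 lower under standard conditions, 1 and 5 after novelty, 2 and 8 for the average and 2 and 1 in ifKO. Of all regions 13.4%, 17.0%, 32.1% and 5.38% were called in those comparisons. The catalytic subunit gene of protein kinase A, Prkaca, was lower in KO (-0.20 and -0.27, edgeR adjusted p = 0.025 and 0.0018). The soluble adenylyl cyclase gene Adcy10, whose region also holds an end of Gm51751, was higher in KO by 1.31 and 1.07 and in ifKO by 1.83 (adjusted p = 0.00037, 0.0018 and 4.3e-06). Of 30 activity-induced genes, 0 were called with novelty in WT or KO (11 and 9 at an unadjusted p under 0.05) and 2 for the average, both higher: Nr4a1 (0.26) and Fosb (0.22).

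The 5 regions most like the outer end of Pde10a had the highest Pearson's r of log2 CPM over the 8 WT and KO libraries. They came from the 14009 regions outside Pde10a, within 2 kb of a gene end, whose mean log2 CPM reached 3. They were at Apold1 and Gm36428 (0.96), Dpysl2 (0.95), Gm41853 (0.95), Gm30189 (0.94) and Pip4k2c (0.94). Over all 12 libraries their r was 0.63, 0.41, 0.82, 0.84 and 0.69. None is on the striatal lists. Of the markers, Ppp1r1b ranked 533, Rgs9 1236, Adora2a 5651, Drd1 6349, Penk 6492 and Pde1b 13861, and Drd2 and Tac1 lay below the minimum level. Regions chosen for the highest r share libraries and depth, and these values are a description.

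Markers of other cells and of neighbouring tissue that a hippocampal dissection could include were summed as well, again with strong regions weighing most. Over the 12 libraries the summed level of 10 cortical markers ranged 1.08-fold, of 12 thalamic and septal markers 1.19-fold, of 22 hippocampal markers 1.16-fold, of 7 astrocyte markers 1.27-fold, of 8 oligodendrocyte lineage markers 1.24-fold, of 7 microglia markers 1.19-fold and of 7 vascular markers 1.24-fold. In KO the hippocampal markers summed to 1582 to 1608 CPM against 1614 to 1673 CPM in WT under standard conditions. After novelty they summed to 1529 to 1548 against 1530 to 1672 CPM, which overlapped. In the second line the sum was higher without overlap, 1668 to 1738 CPM in ifKO against 1499 to 1639 CPM in ifWT. Of these 22 genes 3 were higher and 2 lower under standard conditions, 1 and 3 after novelty, 5 and 6 for the average, and 3 and 0 in ifKO, with members moving both ways. Over all regions the shares called in those comparisons were 13.4%, 17.0%, 32.1% and 5.38%. Prox1 (-0.37 and -0.35, edgeR adjusted p = 0.0014 and 0.0024) and C1ql2 (-0.33 and -0.48) were lower in KO, and Neurod6 was higher (0.33 and 0.38). For the average, the genes called lower were Prox1, C1ql2, Dsp, Wfs1 (-0.16), Nr3c2 and Emx1 (-0.19). Those called higher were Neurod6, Lct (0.33), Zbtb20, Bok and Rgs14, so no cell type is read from these genes. Lct was higher in KO under standard conditions (0.61) and in ifKO (0.86), and the kinase gene Camk2a was higher in ifKO (1.02, adjusted p = 3.2e-13). Oligodendrocyte sums lay below their controls without overlap in all 3 mutant sets. They were 204 to 226 against 232 to 247 CPM under standard conditions and 218 to 220 against 226 to 231 CPM after novelty. In ifKO they were 199 to 212 against 226 to 239 CPM. Thalamic and septal sums also lay below in all 3 sets. They were 475 to 507 against 515 to 516, 451 to 485 against 486 to 502, and 433 to 453 against 455 to 459 CPM. The part of these genes and sums in the mutant differences at Pde10a and Drd1 was not tested. With novelty 0 genes of these lists were called in WT, KO, average or interaction. An edgeR unadjusted p under 0.05 was found at 1, 7, 7 and 1 of the 22 hippocampal markers. Over all 35955 regions the counts were 1679, 1416, 2134 and 1055, so in KO and for the average the hippocampal share was higher. The median log2 change of these 22 was -0.02 in WT and -0.08 in KO. On the other marker lists the counts ran from 0 to 3. Some sums were still lower after novelty, without overlap in either genotype. For astrocytes they were 291 to 298 against 306 to 310 CPM in WT, and 289 to 297 against 305 to 317 CPM in KO. For microglia they were 66.2 to 71.6 against 75.0 to 75.1 CPM, and 69.8 to 75.2 against 75.5 to 78.8 CPM. The hippocampal, cortical, thalamic and septal, oligodendrocyte and vascular sums overlapped in WT or in KO. The part of these shifts in the novelty values was not tested. Of 8 choroid plexus markers, Ttr, Folr1, Otx2, Kcne2 and Aqp1 overlapped none of the regions, and the other 3 ranged 1.25-fold in sum. This sum too was lower after novelty without overlap, at 34.4 to 36.0 against 37.3 to 39.4 CPM in WT. In KO it was 33.4 to 34.8 against 36.59 to 36.62 CPM. Kl dominates the choroid plexus sum with a mean of 26.5 CPM, beside 3.56 for Clic6 and 7.40 for F5.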

How the data were processed

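H3K4me3 was measured by ChIP-seq in 12 hippocampal libraries, 2 per group. The deposited values are read counts of the authors per region. Bowtie2 2.2.9, SAMtools 1.3.1, MACS2 2.1.0 and DESeq2 1.10.0 with R 3.3 are named in the submitters' processing notes, with builds GRCm38 and mm10. The role of each tool is not stated there. The deposited signal values for H3K4me1 and Kdm5C were read only for their positions.

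After removal of 9 repeated regions, the counts of 35996 regions were fitted with edgeR 4.0.16 in R 4.3.3 (TMM, filterByExpr, quasi-likelihood test, 1 mean per group over all 12 libraries), with Benjamini-Hochberg adjustment over all 35955 tested regions and a threshold of 0.05. Intervals are 95%. Each gene's region with most counts represents it, and all members are described. Gene ends come from RefSeq on GRCm38.p6. Correlations used log2 CPM, 100000 permutations at 12 libraries and all 40320 orders at 8. RLE factors, library totals, DESeq2 1.42.0, limma-voom 3.58.1, other filters, offsets fitted to region strength, a replicate block, the compared groups alone and leaving out each library were tried. The WT and KO cohort alone was added after the data were seen. The fit was tested on simulated data. The members and lists were chosen with earlier results of these data known. Totals of 18181192 to 30435735 reads limit precision at weak regions.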

Additional observations from a re-analysis of the deposited data

Results flagged for a closer look

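The second Pde10a region (chr17:8592718-8593432) went down with novelty in WT and up in KO, with every library on its side: from a mean of 3.83 to 3.15 CPM in WT (log2 CPM difference -0.27) and from 2.08 to 2.997 CPM in KO (0.52), which differ by -0.785743. The interaction of genotype and novelty was 0.81 ± 0.31 (SE, edgeR adjusted p = 1.0).

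The start of Rgs9 went up with novelty in WT (17.1 to 19.5 CPM, 0.19) and down in KO (19.2 to 18.6 CPM, -0.05), a difference of 0.244521. The same 4 groups put KO above WT under standard conditions (0.17) and below it after novelty (-0.07), again 0.244521 apart. The interaction was -0.24 ± 0.15 (SE, edgeR adjusted p = 1.0). Of 100 pairs of contrasts at the members, these 3 moved apart in this way.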

How the results depend on the processing

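With 2 libraries a group, weak regions are the least certain. The novelty counts include the region chosen by its novelty values, and nothing is read from them: in KO the members called were 1, against 0, with library totals, DESeq2, limma-voom, offsets fitted to region strength and the WT and KO cohort alone. For ifKO minus ifWT the count was 1, against 2, with DESeq2 and limma-voom, and for ifWT minus WT standard 3, against 1, with at least 10 counts in every library, offsets fitted to region strength and the compared groups alone. The outer end of Pde10a in ifWT minus WT standard changed sign with library totals (-0.016) and, without WT standard replicate 1, to the -0.012 that opens a leave-out range of -0.012 to 0.078 (0.0777 without WT standard replicate 2). The cause was not tested, except that a leave-out fits fewer samples.

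Leaving out 1 library gave 0 to 1 members called for novelty in WT, 0 to 1 in KO, 1 for the average and 0 for the interaction, 1 to 3 for KO under standard conditions, 1 to 5 after novelty, 4 to 10 for their average, 1 to 2 for ifKO and 0 to 2 for ifWT minus WT standard, and 0 to 1 correlations with an adjusted p under 0.05. The call at the region inside Rgs9 held in all 12 leave-outs in the 3 mutant comparisons.

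The replicate numbers are shared by the groups but do not pair the libraries, since correlations of their replicate differences ran from -0.0956 to 0.0552. With a replicate block the members called were 1, 0, 1 and 0 for the novelty comparisons and interaction, 3, 5 and 8 for KO under standard conditions, after novelty and on average, 2 for ifKO and 1 for ifWT minus WT standard. Extending the genes by 0 or 5 kb in place of 2 kb gave 22 or 25 member regions.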
